A study of Mus musculus with 32 samples.

Results

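Gliomas of mice with a germline null allele of Nf1 and conditional (floxed) Trp53 alleles were compared with gliomas of mice with the floxed Trp53 alleles alone. Recombination of Trp53 in the tumours was not tested. The first group, the p53 Nf1KO gliomas, were 4 malignant tumours of genotype hGFAP-cre;p53flox/flox;Nf1KO/+. The second group, the p53 gliomas numbered 2 to 9, were 8 malignant tumours whose genotype was hGFAP-cre;p53flox/flox. Together these are 12 of the 32 arrays of the series, which also profiled a cis p53/Nf1 glioma model, normal forebrain and normal cerebellum. Both groups share the Cre transgene and the floxed Trp53 alleles, so the labelled genotypes differ in Nf1 alone. Cre is driven by the human GFAP promoter, which is active in radial glia and in the neural cells descended from them, whereas the Nf1KO allele is present in every cell of the mouse, including the normal cells within the tumour. Age and sex are not given in the labels, and nothing there says whether an array is 1 animal or a pool, so p-values measure the spread between these arrays only.

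Neurofibromin, the product of Nf1, is a GTPase-activating protein that returns RAS from its active to its inactive form, and its loss leaves the RAF, MEK and ERK kinases and the PI3K and mTOR branch more easily switched on. The p53 protein, the product of Trp53, is a transcription factor that halts division or starts cell death after DNA damage and oncogene activation. Loss of either is frequent in human malignant glioma, and in the mouse the pair of genes lies on the same chromosome.

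The arrays were chosen by genotype and, in 1 case, by measured values: the ninth p53 glioma, number 1, was left out because its log2 values lie close to normal forebrain. Measured over all probe sets, it stood 15.8% of the way from the mean of the 4 forebrains of the same set (0%) to the mean of the compared gliomas other than the array itself (100%). The nearest arrays kept were p53 Nf1KO glioma 2 at 38.2% and p53 Nf1KO glioma 3 at 66.2%. The other p53 Nf1KO gliomas stood at 75.6% and 100%, and the 8 p53 gliomas at 78.5% to 143%. On this scale 3 of the 4 p53 Nf1KO gliomas lay nearer to forebrain than any kept p53 glioma did. Several results below changed without p53 Nf1KO glioma 2 or with p53 glioma 1.

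The glioma label was checked against markers of glial progenitors and of division. Pdgfra, the PDGF receptor of oligodendrocyte progenitors, averaged 9.23 ± 0.36 (SD, n = 4) in p53 Nf1KO gliomas and 9.89 ± 0.52 (SD, n = 8) in p53 gliomas on the log2 scale, above 7.34 ± 0.19 (SD, n = 4) in forebrain. The progenitor factor Olig2 averaged 10.84 and 11.13 beside 8.55, and the proliferation marker Mki67 averaged 9.09 and 9.75 beside 4.60. All values below are deposited log2 values on the arrays, and a difference of 1 is a 2-fold change. A level of 1 gene cannot be set against that of another on this scale.

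Of 18328 probe sets, 479 (2.61%) differed between the groups at a limma adjusted p under 0.05. Of these, 220 (1.2% of all) were higher and 259 (1.41%) were lower in p53 Nf1KO gliomas, and 249 differed at least 2-fold. The count differed widely between fits. The reported one came from 31 arrays that included normal tissue, which varied less than tumours: the median replicate difference (root mean square, log2) was 0.27 in forebrain, 0.406 in p53 Nf1KO gliomas and 0.451 in p53 gliomas. A fit to the 12 compared arrays alone called 18 probe sets (0.0982%), of which 15 were among the 479, and a fit to the gliomas of all 3 models called 155. With p53 glioma 1 included, 26 (0.142%) were called. The fit that left out p53 Nf1KO glioma 2 called 80.

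**Figure D1:**
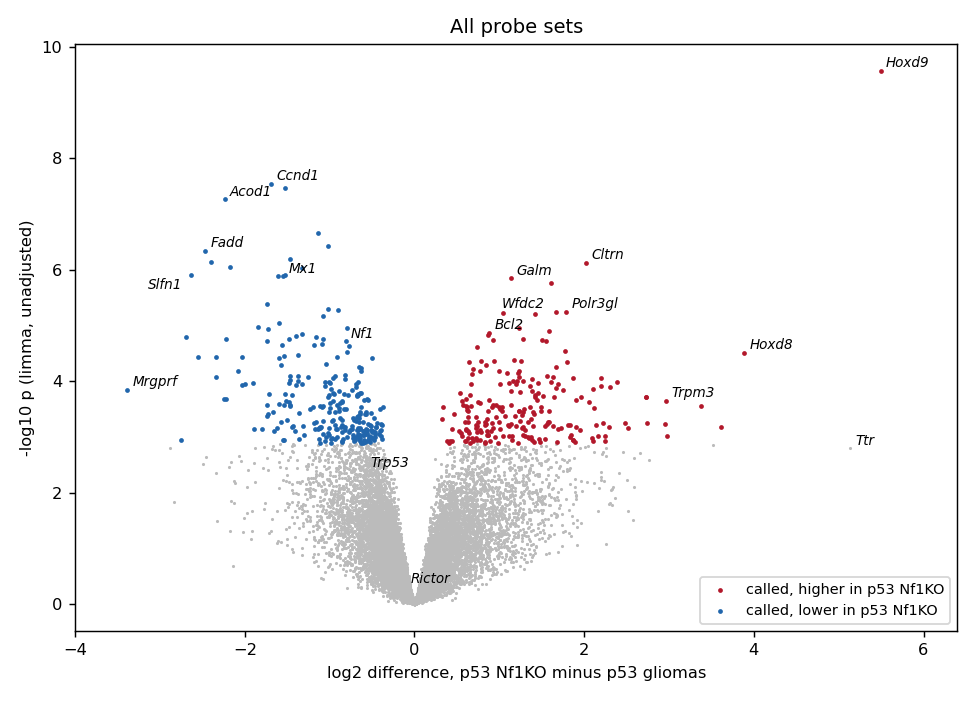
All 18328 probe sets, with the log2 difference (p53 Nf1KO minus p53 gliomas) on the horizontal axis and the unadjusted -log10 p from limma on the vertical axis; coloured points are the 220 called higher and the 259 called lower. Hoxd9 lies far to the upper right, and Ccnd1 and Acod1 have the smallest p among the lower named genes.

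**Figure D2:**
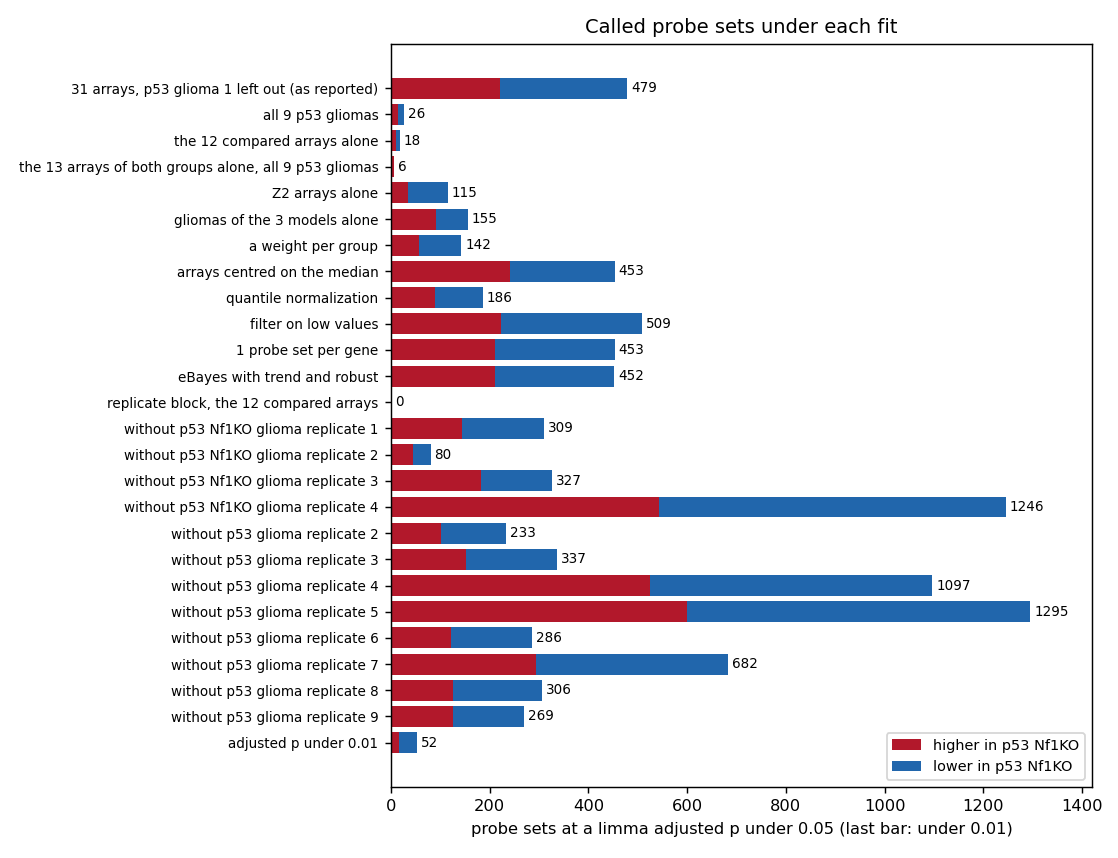
Number of probe sets called under each fit, split into those higher and those lower in p53 Nf1KO gliomas. The count ran from 0 with a replicate block to 1295 without p53 glioma 5, beside 479 as reported. The replicate block compares the groups only through the replicate numbers that both contain.

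A bulk tumour mixes cell types, and fewer cells of a type cannot be told apart from less RNA per cell. Adjusted p-values below come from the 31-array fit unless the fit to the 12 arrays alone or the fit with all 9 p53 gliomas is named. Only 7 probe sets, 0.0382% of those tested, were called in these 3 fits and also in the fit to gliomas alone and in the fit with a weight per group. They were Hoxd9, Hoxd8, Polr3gl, Wfdc2, Galm and 1 probe set of Bcl2, all higher in p53 Nf1KO gliomas (6, or 0.0327% of all probe sets), and Ccnd1, lower (1, or 0.00546%).

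Nf1 itself was lower in p53 Nf1KO gliomas. Its log2 values were 5.26, 5.61, 5.62 and 5.70 in p53 Nf1KO gliomas 1 to 4, and 5.92 to 6.83 with a median of 6.34 in the 8 p53 gliomas. Every p53 Nf1KO glioma lay below every p53 glioma, as in 1.12% of all probe sets, and also below the forebrain mean of 6.19. The difference was -0.81 ± 0.16 (SE), a 1.75-fold lower level, with an adjusted p of 0.00758 in limma. A two-sided exact permutation test over all ways to split the 12 arrays into 4 and 8 gave p = 0.00404, the smallest these 12 arrays allow (0.00606 after adjustment over the 3 genes tested this way). The adjusted p was 0.0348 with all 9 p53 gliomas and 0.149 in the fit to the 12 arrays alone. Where the probes lie relative to the disrupted part of Nf1 is unknown, so the level shows only that the transcript is lower in the arrays labelled with the null allele.

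Trp53, floxed in both groups, read 5.24, 5.04, 5.42 and 5.50 in the p53 Nf1KO gliomas and 5.57 to 6.32 (median 5.85) in the p53 gliomas. The groups did not overlap, but the difference of -0.58 ± 0.17 had an adjusted p of 0.0562 and was not called (exact permutation p = 0.00404, adjusted 0.00606). It was not called over the 12 arrays (0.169) or with all 9 p53 gliomas (0.315). The left-out p53 glioma 1 read 5.0, below all 12. Rictor, the mTORC2 subunit named in the title of the series, differed by -0.12 ± 0.16 (adjusted p = 0.721, exact permutation p = 0.42) and its groups overlapped.

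Nf1 and Trp53 lie on chromosome 11, so the genes around them were read for a regional change. Of the 10 measured genes on each side of Nf1, 0 were called, and of the 20 around Trp53, 0 were called. In limma the 2 nearest genes on each side of Nf1 differed by -0.39 (Wsb1, adjusted p = 0.0927), 0.45 (Ksr1, 0.203), 0.42 (Omg, 0.388) and -0.50 (Evi2b, 0.0791), of which Omg and Evi2b lie within an intron of Nf1. Around Trp53 they differed by -0.19 (Wrap53, 0.439), 1.02 (Efnb3, 0.0939), -0.14 (Atp1b2, 0.727) and -0.49 (Shbg, 0.147). The median over all chromosome 11 probe sets, relative to each array's own median and to the p53 gliomas, was -0.069 to -0.003 in the 4 p53 Nf1KO gliomas. No chromosome moved by more than 0.185 in a p53 Nf1KO glioma, while single p53 gliomas stood at -0.317 on chromosome 6 and -0.307 on chromosome 15.

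**Figure D3:**
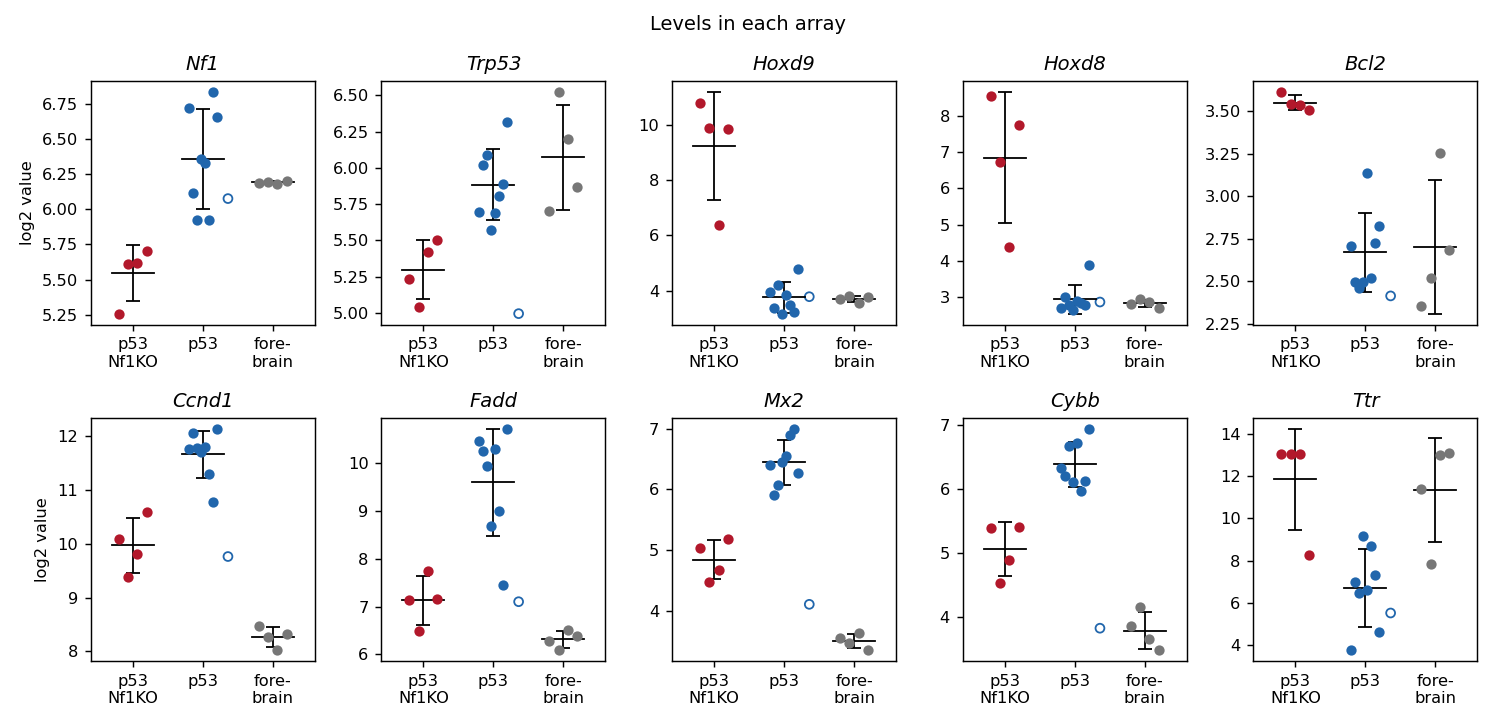
Log2 level of 10 genes in each array: p53 Nf1KO gliomas (red, n = 4), p53 gliomas 2 to 9 (filled blue, n = 8), the left-out p53 glioma 1 (open blue) and forebrain (grey, n = 4), with the mean and SD of each group as lines; vertical scales differ. Red and filled blue points do not overlap except for Fadd and Ttr, and Ttr is low in p53 Nf1KO glioma 4 and spread widely in forebrain.

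The partners of neurofibromin were called about as rarely as other probe sets, of which 2.61% were called. Of 30 measured RAS proteins and RAS regulators, Nf1 was the only one called. The RAS gene Nras differed by -0.53 ± 0.19 (adjusted p = 0.109), and the exchange factors of RAS-family proteins Rasgrp1 and Rasgrp2 by 1.16 and 1.06 (0.121 and 0.0823). Of 13 genes of the RAF, MEK and ERK cascade 0 were called, with Map2k1, which encodes MEK, at 0.49 ± 0.18 (0.125). Of 19 transcripts known as outputs of this pathway, 1 was called, and it was lower: Ccnd1, described below. The list medians were -0.03, 0.08 and 0.02, beside a median of -0.03 over all probe sets.

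Among 36 genes of the mTOR complexes and PI3K signalling, 2 were called and both were higher, beside 1.2% of all probe sets. By sign 21 of the 36 were lower, beside 54.2% of all probe sets, and the list median was -0.07. Deptor, which binds and inhibits both mTOR complexes, read 4.63, 5.09, 4.91 and 4.49 in p53 Nf1KO gliomas and 2.76 to 4.50 (median 3.45) in p53 gliomas. Only p53 Nf1KO glioma 4 lay within the range of the p53 gliomas. The difference was 1.26 ± 0.26 (adjusted p = 0.012), and forebrain stood higher still at 5.43. Inpp4b, a phosphatase that removes a phosphate from a PI3K lipid product, differed by 1.53 ± 0.42 (0.0468) and also lay below forebrain. Eif4ebp1, the translation repressor controlled by mTORC1, differed by -1.13 ± 0.32 without being called (0.0512). In the fit to the 12 arrays alone neither Deptor (0.111) nor Inpp4b (0.263) was called, nor was either with all 9 p53 gliomas (0.218 and 0.293), and the call for each was lost without p53 Nf1KO glioma 2. The call for Inpp4b was also lost without p53 Nf1KO glioma 3 or without p53 glioma 2, 3, 8 or 9.

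Of 40 receptor tyrosine kinases and ligands, 1 was called, a share near the 2.61% of all probe sets. Fgf9, a growth factor made by neurons, read 7.60, 6.91, 6.48 and 6.13 in p53 Nf1KO gliomas, 3.52 to 6.27 (median 5.10) in p53 gliomas and 7.58 in forebrain. Only p53 Nf1KO glioma 4 fell within the p53 range, and the difference was 1.77 ± 0.35 (adjusted p = 0.01; 0.203 over 12 arrays; 0.167 with all 9). Of 29 p53 target genes 1 was called, Perp, a membrane protein of p53-dependent cell death, at 1.87 ± 0.41 (0.0168), again near that share. Its call was lost without p53 Nf1KO glioma 2, over the 12 arrays (0.222) and with all 9 p53 gliomas (0.111). The damage-induced cytokine Gdf15 differed by -0.76 (0.14) and the kinase Plk2 by 1.0 (0.117), and neither was called.

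The highest difference of all probe sets belonged to the HoxD cluster on chromosome 2. HOX genes encode transcription factors that mark position along the body axis and are largely silent in normal forebrain. Hoxd9 read 10.82, 9.91, 6.38 and 9.86 in p53 Nf1KO gliomas 1 to 4, and 3.16 to 4.78 (median 3.66) in the p53 gliomas. All 4 p53 Nf1KO gliomas were above all p53 gliomas, as in 0.507% of all probe sets, with p53 Nf1KO glioma 3 well below the other 3, and the p53 gliomas stood at the forebrain level of 3.69. The difference was 5.50 ± 0.57, which is 45.1-fold, with an adjusted p of 4.97e-06 in limma, 0.00947 in the fit to the 12 arrays alone and 1.69e-06 with all 9 p53 gliomas.

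Its neighbour Hoxd8 was again highest in p53 Nf1KO glioma 1 and lowest in number 3. It read 8.54, 6.72, 4.37 and 7.73 in numbers 1 to 4, against 2.65 to 3.89 (median 2.82) in p53 gliomas and 2.84 in forebrain. The groups did not overlap, and the difference was 3.89 ± 0.78 (adjusted p = 0.0104; 0.036 over 12 arrays; 0.0287 with all 9). Hoxd10 was called at 0.56 ± 0.15 (0.0442), with values of 2.52 to 3.75 that overlap those of the p53 gliomas, and the call was lost in the fit to the 12 arrays alone (0.265) and in 6 of the 12 fits that left out 1 array.

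The other measured genes of the cluster were not called. Hoxd13, Hoxd12, Hoxd11, Hoxd4, Hoxd3 and Hoxd1 differed by -0.15 to 0.29, with the smallest limma adjusted p at 0.373 for Hoxd4. Among 34 measured HOX genes the 3 HoxD genes were the only ones called, beside 1.2% of all probe sets called higher, and the list median was 0.01. Relative to their own forebrain, the cis p53/Nf1 gliomas averaged 1.25 higher for Hoxd9 and 2.84 higher for Hoxd8. The corresponding values here were 5.56 and 4.0 in p53 Nf1KO gliomas and 0.06 and 0.11 in p53 gliomas. These neighbours were chosen after the level of Hoxd9 had been seen.

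The other genes called in all 5 fits have varied roles. Polr3gl, an isoform of an RNA polymerase III subunit, read 8.64, 8.09, 8.07 and 8.41 in p53 Nf1KO gliomas against 6.12 to 7.62 (median 6.28), a difference of 1.79 ± 0.32 (adjusted p = 0.00455; 0.033 over 12 arrays; 0.0191 with all 9). Wfdc2, a secreted protease inhibitor of epithelia, read 6.02, 6.17, 6.0 and 5.15 against 4.03 to 4.42 (median 4.12), a difference of 1.66 ± 0.30 (0.00455). Galm, which converts galactose between its ring forms, read 6.69, 6.75, 7.02 and 6.78 against 5.25 to 6.10 (median 5.81), a difference of 1.13 ± 0.18 (0.00155). In each of these the groups did not overlap, and Polr3gl and Galm also stood above forebrain (6.86 and 6.09).

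Bcl2, which blocks mitochondrial cell death, was called for 1 of its 3 probe sets. This one read 3.61, 3.54, 3.54 and 3.51 in p53 Nf1KO gliomas and 2.46 to 3.14 (median 2.61) in p53 gliomas, with a difference of 0.88 ± 0.17 (adjusted p = 0.00756; 0.036 over 12 arrays; 0.0205 with all 9). These levels are low on a scale whose array medians lie near 7. The 2 brighter probe sets of the gene differed by 0.66 (adjusted p = 0.0789) and 0.50 (0.165), in the same direction but not called.

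Ccnd1 encodes cyclin D1, which drives cells into division and is switched on by RAS signalling. It read 10.10, 9.38, 9.80 and 10.60 in p53 Nf1KO gliomas and 10.78 to 12.14 (median 11.77) in p53 gliomas, beside 8.27 in forebrain. Every p53 Nf1KO glioma lay between forebrain and the lowest p53 glioma. The difference was -1.69 ± 0.22, or 3.24-fold lower, with an adjusted p of 0.000211 in limma, 0.0471 over the 12 arrays and 0.0348 with all 9. No omission of a single array ended the call.

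The measured genes beside Ccnd1 on chromosome 7 were lower too, and 6 of 12 neighbours were called, beside 1.41% of all probe sets called lower. They were Cttn, an actin-binding protein, Ppfia1, a liprin scaffold, Fadd, the adaptor of death receptors, LTO1, Tpcn2, an endolysosomal channel, and Mrgprf, an orphan receptor. Fadd, for example, read 7.13, 6.50, 7.75 and 7.15 in p53 Nf1KO gliomas and 7.46 to 10.71 (median 10.10) in p53 gliomas, a difference of -2.47 ± 0.38 (adjusted p = 0.00122). Only 1 p53 glioma, number 8, lay within the p53 Nf1KO range. Fadd was not called over the 12 arrays (0.134). The calls for LTO1, Tpcn2 and Mrgprf were lost without p53 Nf1KO glioma 2, and that for LTO1 also without number 3.

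Read against forebrain gene by gene, the region separated the arrays. Ppfia1 was higher than the forebrain mean by 0.71 to 3.29 in p53 gliomas 2 to 7 and 9, and by 0.26 in p53 glioma 8, while the p53 Nf1KO gliomas stood at -0.17 to 0.17. LTO1 was higher by 1.45 to 3.11 in the same 7 p53 gliomas, and stood at -0.23 in p53 glioma 8 and at -0.41 to -0.05 in the p53 Nf1KO gliomas. Ccnd1 itself was raised in every one of the 12 tumours, by 1.11 to 2.33 in p53 Nf1KO gliomas, 2.51 in p53 glioma 8 and 3.04 to 3.87 in the other p53 gliomas.

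Of the growth factors between Fadd and Ccnd1, Fgf4 and Fgf15 varied widely among the p53 gliomas. Fgf4 stood 8.64 above forebrain in p53 glioma 9 and 3.80 above it in p53 glioma 3, and Fgf15 stood 6.42 and 5.64 above it in the same arrays. Relative to forebrain, the left-out p53 glioma 1 stood at 4.21 for Fgf4 and -0.13 for Fgf15. Neither was called (adjusted p = 0.0538 for Fgf4 and 0.0927 for Fgf15), nor were Fgf3, Ano1, Nadsyn1 and Dhcr7. The median of the 12 neighbours, relative to each array's median and to the p53 mean, was -2.06 to -1.60 in the 4 p53 Nf1KO gliomas, -2.02 in p53 glioma 8 and -0.54 to 0.72 in the other 7. In the left-out p53 glioma 1 this median was -1.33. These neighbours were also chosen after the level of Ccnd1 had been seen. In the cis p53/Nf1 gliomas Ccnd1 stood 3.58 above its own forebrain, and Fadd and Cttn 0.40 and 0.13. No array of DNA was used here, so copy number in the region was not tested.

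**Figure D4:**
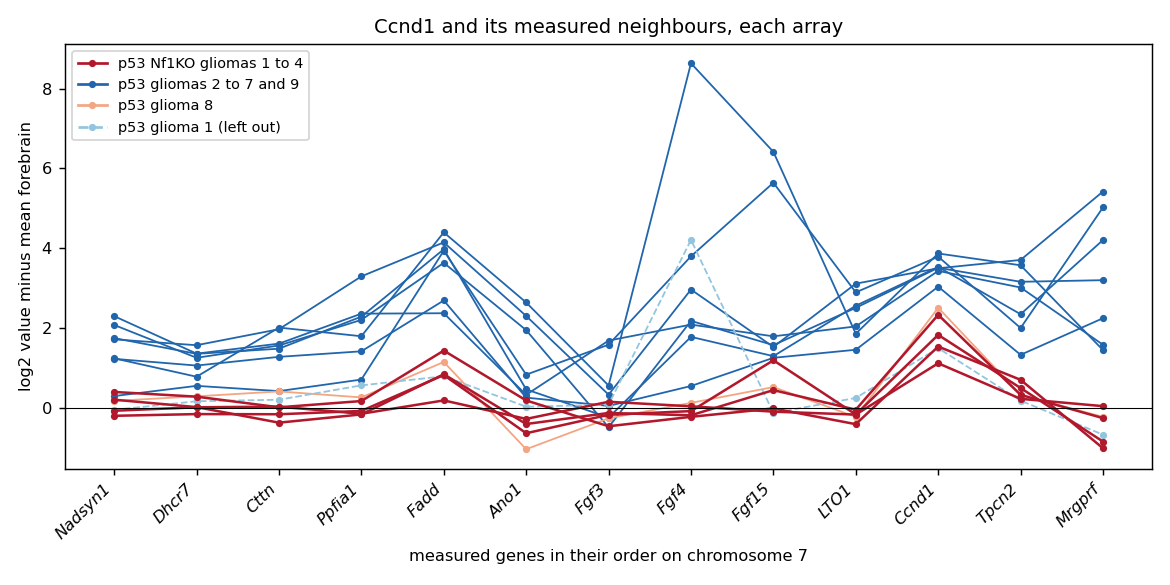
Log2 value minus the forebrain mean for Ccnd1 and its 12 measured neighbours, in their order on chromosome 7 (evenly spaced, not to distance), with 1 line per array. At Ccnd1 the p53 Nf1KO gliomas (red) stand at 1.11 to 2.33, p53 glioma 8 (orange) at 2.51 and the other p53 gliomas (blue) at 3.04 to 3.87; at LTO1 the red and orange lines lie below 0 and the blue lines at 1.45 to 3.11.

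Of other genes that govern entry into division, Cdk2 was called lower, at -1.14 ± 0.30 (adjusted p = 0.0387). Its values of 6.46, 5.61, 6.55 and 7.93 in p53 Nf1KO gliomas overlap the p53 gliomas only through p53 Nf1KO glioma 4, and the call was lost in 8 of the 12 fits that left out 1 array. Of 32 DNA replication genes, 2 were called and both were lower, beside 1.41% of all probe sets called lower. They were the clamp loader subunit Rfc1, at -0.57 ± 0.14 (0.0285), and the origin factor Mcm10, at -0.99 ± 0.27 (0.0468). These calls were lost in 5 and 8 of the 12 omissions, and 0 of 32 were called over the 12 arrays, with all 9 p53 gliomas or without p53 Nf1KO glioma 1, 2 or 3. Leaving out p53 Nf1KO glioma 4 gave 14 calls of 32, with a list median of -1.01 beside -0.69 as reported. Of 29 mitotic genes 0 were called, though all 29 were lower by sign, beside 54.2% of all probe sets, with a median of -0.80. Leaving out p53 Nf1KO glioma 4 gave 11 calls of 29 and a median of -1.22, and without number 2 the median was -0.36. The median of the mitotic genes relative to the p53 mean was -0.53, -1.94, -1.19 and 0.46 in p53 Nf1KO gliomas 1 to 4, and -0.94 to 0.69 in the p53 gliomas. With all 9 p53 gliomas the mitotic median difference was -0.36.

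Among interferon response genes every call was in the direction of lower levels in p53 Nf1KO gliomas. These genes are switched on by a transcription factor complex that holds STAT2 and IRF9 when interferon binds its receptor, and their products block viral replication or sense nucleic acid. Of 25 measured members of the list, 7 were called, and all 7 were lower, among them Mx1, Mx2 and Oas2. Over all probe sets 1.41% were called lower. By sign alone 25 of 25 were lower, beside 54.2% of all probe sets lower and 45.8% higher, and in 10 the groups did not overlap, beside 1.12% of all probe sets without overlap and lower. The median difference over the list was -0.97. Members of the list share their regulators and are not independent.

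The complex binds a site called the interferon-stimulated response element, and 4 promoter stretches that hold its core are shown beside the values. RefSeq promoter windows of 300 bases (250 before to 50 after a gene's start, GRCm38.p6) were searched on both strands for its core, GAAANNGAAA, where N is any base. The core was found in 1131 of all 32851 windows (3.44%). Only 3 of the 7 called genes had a window, and 2 of those held the core. Mx1, Mx2, Oas2 and Zbp1 had no window under their symbols and were not searched. Of the 25 measured genes 18 were matched to 22 windows by symbol, and 8 of those windows (36.4%), each of another gene, held it. Those shown are the 4 of the 8 that were called or whose groups did not overlap, each read 5′ to 3′ on the strand of its gene, with the core, or its reverse complement TTTCNNTTTC, in capitals.
Stat2, chr10:128270256-128270305, plus strand: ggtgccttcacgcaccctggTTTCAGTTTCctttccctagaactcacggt
Rsad2, chr12:26456543-26456592, minus strand: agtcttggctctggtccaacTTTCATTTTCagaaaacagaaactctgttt
Cxcl10, chr5:92349073-92349122, minus strand: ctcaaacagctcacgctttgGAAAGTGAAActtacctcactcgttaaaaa
Ifit1, chr19:34640765-34640833, plus strand: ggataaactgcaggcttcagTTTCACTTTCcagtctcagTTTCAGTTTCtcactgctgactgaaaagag
A match to these letters is a description and not evidence of binding in these tumours.

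Stat2, the partner that carries the activating domain of the complex, read 5.54, 5.56, 5.29 and 5.06 in p53 Nf1KO gliomas and 5.67 to 6.80 (median 6.17) in p53 gliomas. The groups did not overlap, and the difference was -0.85 ± 0.21 (adjusted p = 0.0348; 0.115 over 12 arrays; 0.222 with all 9). Rsad2, which encodes the antiviral enzyme viperin, read 8.14, 6.55, 7.73 and 7.05 against 8.14 to 10.01 (median 9.0), with p53 Nf1KO glioma 1 level with the lowest p53 glioma. Its difference was -1.54 ± 0.42 (0.0469; 0.164; 0.355). Omitting 1 array ended the call for Stat2 in 7 and for Rsad2 in 8 of 12 cases, p53 Nf1KO gliomas 2, 3 and 4 among them for both. The chemokine Cxcl10 and the translation inhibitor Ifit1, whose groups did not overlap, differed by -2.16 ± 0.82 (0.131) and -0.83 ± 0.48 (0.321), and neither was called.

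The antiviral GTPases Mx1 and Mx2 had the smallest adjusted p of the list. Mx2 read 5.03, 4.48, 4.67 and 5.18 in p53 Nf1KO gliomas and 5.91 to 7.0 (median 6.43) in p53 gliomas, with no overlap. Forebrain was lower than both at 3.50. The difference was -1.60 ± 0.26, or 3.04-fold (adjusted p = 0.00152; 0.0211 over 12 arrays; 0.132 with all 9). Mx1 read 7.11, 6.25, 6.18 and 5.95 against 7.28 to 8.87 (median 7.74), a difference of -1.54 ± 0.25 (0.00152; 0.102; 0.154).

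The nucleic acid sensors and synthetases gave the other 3 calls. Oas2, which makes the activator of RNase L, differed by -1.46 ± 0.32 (adjusted p = 0.0175), its relative Oasl1 by -1.67 ± 0.41 (0.0283) and the Z-form nucleic acid sensor Zbp1 by -1.54 ± 0.37 (0.0259). In all 3 the groups did not overlap. The calls for Oasl1 and Zbp1 were lost without p53 Nf1KO glioma 2, and that for Oasl1 also without p53 glioma 6 or 9. Usp18, which restrains the interferon receptor, differed by -1.50 ± 0.45 (0.0626) and was called only in the fit to the 12 arrays alone (0.0482) among the 3 fits. Outside the list, the helicase Ddx60 read 4.66, 3.85, 4.53 and 4.13 against 5.52 to 6.42 (median 6.17), a difference of -1.74 ± 0.30 (0.00403; 0.00895 over 12 arrays), and its second probe set differed by -1.66 (0.0519). Slfn1, of the interferon-inducible Schlafen family, differed by -2.63 ± 0.43 (0.00152).

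By array, the median of the interferon list relative to the p53 mean was -0.57, -1.55, -0.83 and -1.15 in p53 Nf1KO gliomas 1 to 4. It was -0.38 to 0.58 in the 8 p53 gliomas, so the groups did not overlap. The left-out p53 glioma 1 stood at -2.47 and the forebrains at -3.58 to -3.31. Within the p53 Nf1KO gliomas the lowest value was that of number 2, the array nearest to forebrain. Without p53 Nf1KO glioma 2, 3 of 25 were called and the median was -0.82. With all 9 p53 gliomas 0 of 25 were called and the median was -0.72, and in the fit to the 12 arrays alone 2 were called, Mx2 and Usp18. Per-array medians of neural stem and progenitor genes did not overlap either, at -0.54 to -0.24 against -0.18 to 0.40 in p53 gliomas. The same held for genes of the mesenchymal glioma state, at -0.80 to -0.54 against -0.40 to 0.695.

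A list of monocyte and macrophage genes gave 5 calls among 22 measured members. Which cells of the tumour made these transcripts was not tested. All 5 were lower, beside 1.41% of all probe sets called lower, and the median difference was -1.13. Ccl2, the chemokine that draws monocytes, read 7.53, 6.27, 6.30 and 5.29 in p53 Nf1KO gliomas and 7.76 to 10.29 (median 8.19) in p53 gliomas. The groups did not overlap, and the difference was -2.22 ± 0.43, 4.65-fold (adjusted p = 0.00758; 0.139 over 12 arrays; 0.195 with all 9). Its relative Ccl7 differed by -2.34 ± 0.48 (0.0111), and its receptor Ccr2 by -1.16 ± 0.30 (0.036). The calls for Ccl7, Ccr2 and Cybb were lost without p53 Nf1KO glioma 2, and that for Ccr2 also without p53 Nf1KO glioma 3 or p53 glioma 2 or 9.

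Cybb, the catalytic subunit of the phagocyte oxidase, read 5.39, 4.54, 4.90 and 5.42 in p53 Nf1KO gliomas against 5.97 to 6.94 (median 6.27), a difference of -1.32 ± 0.25 (adjusted p = 0.00758; 0.0514 over 12 arrays; 0.266 with all 9). The groups did not overlap, and forebrain stood at 3.79. The scavenger receptor Msr1 differed by -1.55 ± 0.43 (0.0469), a call lost in 8 of the 12 omissions. The perivascular macrophage genes Mrc1 and Cd163 had the opposite sign, each at 1.31, and were not called (0.0626 and 0.0631). Acod1, which makes itaconate in activated macrophages, was lower by -2.24 ± 0.30 (0.000252), and the decoy receptor Il1r2 by -2.17 ± 0.35 (0.00144), both without overlap between groups. Without p53 Nf1KO glioma 2 only 1 of the 22 was called, and with all 9 p53 gliomas or with the 12 arrays alone 0 were called.

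Of 20 measured microglial genes 0 were called, and the median difference was -0.15. The log2 of their summed level was 13.46 to 14.12 in p53 Nf1KO gliomas and 13.68 to 14.49 in p53 gliomas. For the monocyte and macrophage list it was 12.36 to 13.12 and 12.74 to 14.18, and the levels of the different lists cannot be compared with each other. The resident microglia markers P2ry12 and Tmem119 differed by 0.32 ± 0.45 and -0.12 ± 0.35 (adjusted p = 0.717 and 0.868). Olfml3, of the microglial matrix, differed by -1.16 ± 0.37 (0.076) and Ptprc, the pan-leukocyte phosphatase, by -0.90 ± 0.32 (0.112). Of 11 genes of MHC class II presentation all were lower by sign, beside 54.2% of all probe sets, with a median of -0.65. Of the 11, 0 were called, with H2-Ab1 at -1.23 ± 0.45 (0.116). Of 19 T and NK cell genes 0 were called, with a median of -0.07. Only 2 of the 19 passed the filter on low values, so this list says little about a difference in these cells.

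The lists of matrix and mesenchymal genes gave 6 further calls, all lower, beside 1.41% of all probe sets called lower. Of 27 matrix genes 3 were called with a median of -0.65: the proteoglycans biglycan (Bgn, -2.08 ± 0.44, adjusted p = 0.0152), versican (Vcan, -1.59 ± 0.38, 0.0259) and perlecan (Hspg2, -1.13 ± 0.30, 0.0387). Outside the list, Col18a1, a basement membrane collagen, read 6.12, 6.37, 7.62 and 7.91 in p53 Nf1KO gliomas and 8.53 to 10.77 (median 9.40) in p53 gliomas. The groups did not overlap, and the difference was -2.55 ± 0.52 (0.0111). Of 27 genes of the mesenchymal glioma state 3 were called with a median of -0.64: the hyaluronan receptor Cd44 (-1.89 ± 0.50, 0.0387), the calcium-binding S100a4 (-1.73 ± 0.43, 0.0299) and the plasminogen activator Plau (-0.69 ± 0.19, 0.0448). The related S100a3, outside the list, was lower by -1.72 ± 0.32 (0.00691). In the fit to the 12 arrays alone and with all 9 p53 gliomas, 0 of either list were called. Without p53 Nf1KO glioma 2, 0 matrix and 1 mesenchymal gene were called, and the call for Col18a1 was lost. The calls for Cd44, Plau, S100a4 and Hspg2 were lost in 8, 7, 5 and 5 of the 12 omissions.

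Of 21 neural stem and progenitor genes 2 were called, both lower, beside 1.41% of all probe sets called lower. By sign 17 were lower, beside 54.2% of all probe sets, with a median of -0.46. Of 14 neuroblast and immature neuron genes 1 was called higher and 1 lower, beside 1.2% and 1.41% of all probe sets, with a median of 0.33. The progenitor factor Sox4 was lower by -1.17 ± 0.22 (adjusted p = 0.00758; lost without p53 Nf1KO glioma 2). In a separate list of 18 chromatin genes 1 was called, beside 1.41% of all probe sets called lower. This was Tet1, which oxidises methylated cytosine, lower by -1.01 ± 0.25 (0.0285) without overlap. Dlx1, a factor of interneuron precursors, was higher by 1.47 ± 0.40 (0.0468), with p53 Nf1KO glioma 4 highest at 8.42. Igfbpl1, of newborn neurons, was lower by -1.41 ± 0.37 (0.0397). The stem and the neuroblast lists had 0 calls with all 9 p53 gliomas and without p53 Nf1KO glioma 2. The calls for Dlx1 and Igfbpl1 were each lost in 6 of the 12 omissions, and that for Tet1 in 4. Of 34 genes of mature neurons 0 were called, though all 34 were higher by sign, beside 45.8% of all probe sets, with a median of 1.00. Their median relative to the p53 mean was 1.10, 1.56, 0.82 and 0.35 in p53 Nf1KO gliomas 1 to 4, -1.30 to 1.05 in p53 gliomas and 1.56 to 1.98 in forebrain.

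Choroid plexus and ependymal genes were high in 3 of the 4 p53 Nf1KO gliomas. Ttr, the transthyretin secreted by choroid plexus, read 13.07, 13.02, 13.04 and 8.29 in p53 Nf1KO gliomas 1 to 4, 3.77 to 9.16 (median 6.82) in p53 gliomas and 11.32 ± 2.46 (SD, n = 4) in forebrain. Number 4 lay within the range of the p53 gliomas, and the difference of 5.14 ± 1.47 was not called (adjusted p = 0.0539). The folate receptor Folr1 (2.29 ± 0.60, 0.0387), the channel protein Clic6 (2.52 ± 0.66, 0.0387) and Klotho (Kl, 2.97 ± 0.81, 0.0442) were called, again with p53 Nf1KO glioma 4 low. All 14 measured members were higher by sign, beside 45.8% of all probe sets, with a median of 1.41. Of the 14, 3 were called, beside 1.2% of all probe sets called higher. With all 9 p53 gliomas, with the 12 arrays alone, with Z2 arrays alone (those of the same set), with a weight per group and after quantile normalization, 0 were called. Without p53 Nf1KO glioma 1, 2 or 3, or p53 glioma 2, 3, 6 or 8, 0 were called, and without p53 Nf1KO glioma 4, 6 were called. Cltrn, a membrane protein of transporting epithelia, and Wfdc2, above, were likewise lowest in p53 Nf1KO glioma 4, and the part of choroid plexus in their levels was not tested. Cltrn read 4.68, 5.93, 5.11 and 3.21 against 2.41 to 3.03 (median 2.69), without overlap, a difference of 2.02 ± 0.32 (0.00137).

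Trpm3, a cation channel of choroid plexus and neurons, was high in all 4. It read 6.51, 7.59, 6.90 and 7.57 in p53 Nf1KO gliomas against 2.49 to 6.36 (median 3.99), a difference of 2.96 ± 0.70 (adjusted p = 0.0239), but its second probe set differed by 0.22 (0.457). The call was lost without p53 Nf1KO glioma 2, over the 12 arrays (0.115) and with all 9 p53 gliomas (0.0669).

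The remaining genes with the highest differences read below forebrain in p53 gliomas. Cpne4, a calcium-dependent membrane-binding protein, differed by 2.95 ± 0.76 (adjusted p = 0.0372), and relative to forebrain it stood at -0.34 in p53 Nf1KO gliomas and -3.29 in p53 gliomas. Its call was lost over the 12 arrays (0.24), with all 9 p53 gliomas (0.265) and in 7 of the 12 omissions. Zfp804a (2.10 ± 0.47, 0.0192), the BMP family ligand Gdf10 (1.70 ± 0.45, 0.0388), Plcxd2 (1.58 ± 0.30, 0.00729), Nat8f5 (1.43 ± 0.26, 0.00465) and Smco3 (2.22 ± 0.57, 0.0372) likewise read below forebrain in both groups, and lower in p53 gliomas. The carotenoid oxygenase Bco2 (1.67 ± 0.35, 0.0138), the glutathione transferase Gstk1 (1.55 ± 0.30, 0.00758) and the mitochondrial phospholipase Pld6 (1.63 ± 0.42, 0.0383) stood above forebrain in p53 Nf1KO gliomas and below it in p53 gliomas. At the other end, Csprs (-2.39 ± 0.38, 0.00137), the aspartic protease Ctse (-1.91 ± 0.42, 0.0175) and Mroh3 (-1.71 ± 0.39, 0.0215) were above forebrain in both groups and higher in p53 gliomas. Of the genes in this paragraph, the calls for Pld6 (7 of the 12 omissions), Smco3 (6), Gdf10 (4), Zfp804a (2), Mroh3 (2) and Ctse (1) were also lost when 1 array was omitted.

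Counted over all 479 called probe sets, 350 (73.1%) had a p53 Nf1KO mean between those of forebrain and p53 gliomas, beside 61.4% of all probe sets. A further 114 (23.8%) lay past forebrain and 15 (3.13%) on the far side of the p53 gliomas, beside 16.1% and 22.6% of all probe sets. Of the 7 probe sets called in all 5 fits, 1 lay between. Because the p53 gliomas enter both the call and the position, these shares are a description without a test.

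**Figure D5:**
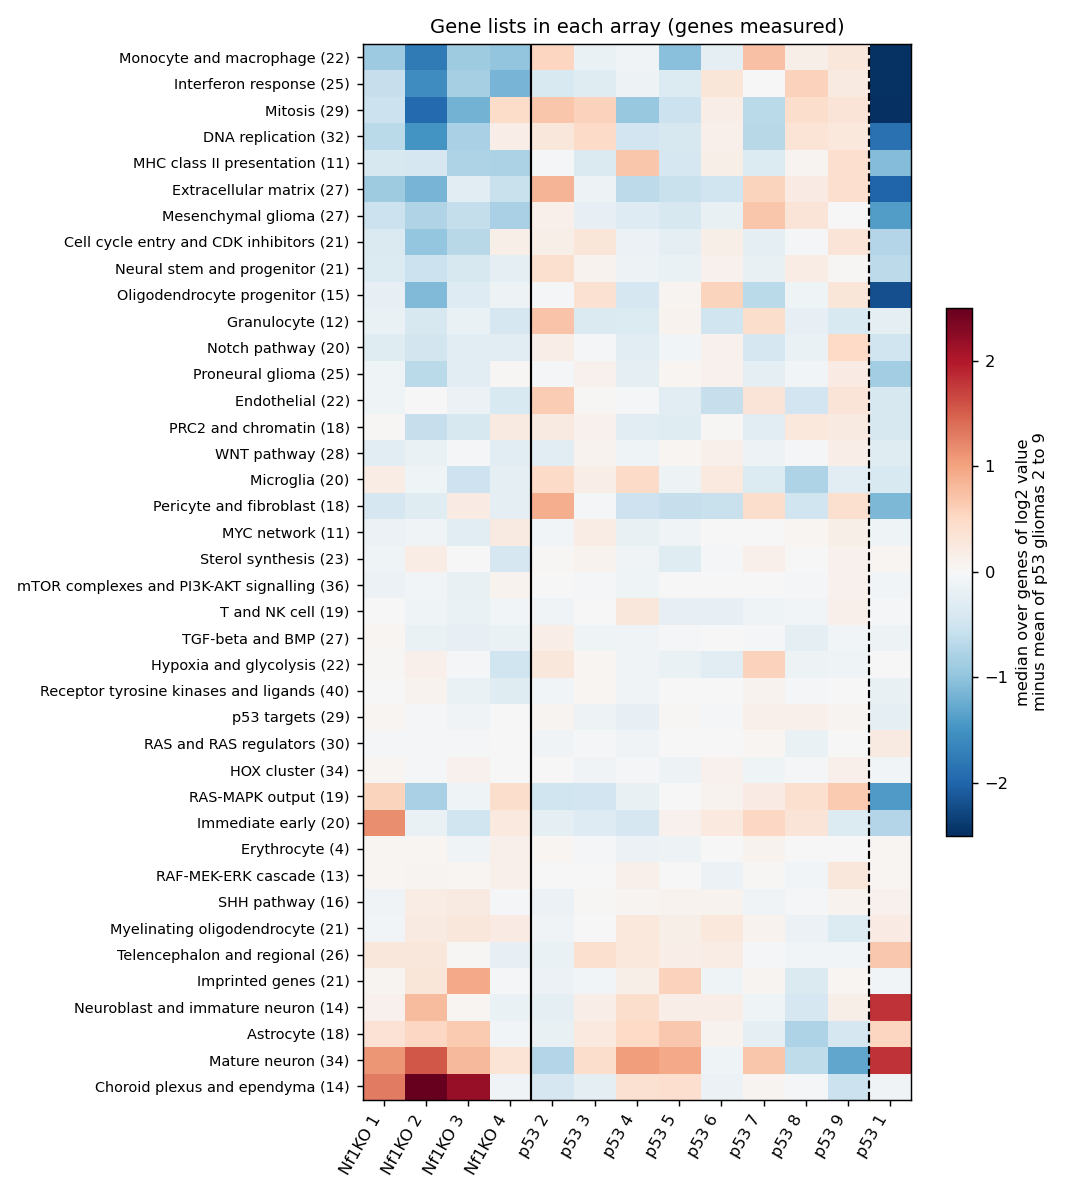
Median over the measured genes of each list (number in brackets) of the log2 value minus the mean of p53 gliomas 2 to 9, in each array; the solid line separates the 4 p53 Nf1KO gliomas and the dashed line the left-out p53 glioma 1. Lists are ordered by their median difference, from monocyte and macrophage genes (-1.13) at the top to choroid plexus and ependymal genes (1.41) at the bottom, and p53 Nf1KO glioma 4 departs from the other 3 in mitotic and choroid plexus genes.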

How the data were processed

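Total RNA from mouse brain tumours and normal brain was labelled with biotin and hybridised to Affymetrix mouse genome arrays, per the labels. The values that the authors deposited are on a log2 scale, for 18328 custom probe sets in 32 arrays. The sources used here do not give the summarisation or normalization of probes, and the table has no detection calls. Array medians were 6.96 to 7.06 in the 12 compared gliomas. Probe sets were named through their gene IDs and RefSeq (GRCm38.p6): 17226 matched 1 gene, 785 several and 317 none, and only the first kind is named. A gene with several probe sets is represented in lists by the one with the highest mean.

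Limma 3.58.1 (R 4.3.3) was fitted to the log2 values of 31 arrays with a mean for each of 6 groups, leaving out p53 glioma 1, and p-values were adjusted by Benjamini-Hochberg over all probe sets. The test was run on simulated data in which every group had the spread of the p53 gliomas. Normal tissue varied less in the real data, so the error rate of the 31-array fit was not tested. Genes named are the 15 highest and 15 lowest called differences without overlap between groups, the targeted genes, up to 4 members of each list by moderated t and the neighbours of Nf1 and Trp53; others were chosen after their values were seen. Members and lists were chosen with earlier results of these data known. Alternatives changed the arrays in the fit, the weighting, the normalization, the low-value filter, the probe sets per gene and the replicate block, and left out each array in turn.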

Additional observations from a re-analysis of the deposited data

Results flagged for a closer look

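Among the genes named, 284 sets of values (142 genes in 2 groups) were examined for a value that stood far from the others of its group, by the gap to the nearest value over the range of the group. Chance alone would mark about 1 in 20 such sets, and 15 were marked. Of these, 7 were in p53 Nf1KO glioma 4. It was low for the choroid plexus genes Ttr (8.29, next 13.02) and Clic6 (5.31, next 8.43), for Wfdc2 (5.15, next 6.0) and for the astrocytic gap junction gene Gjb6 (7.61, next 8.84). It was high for the interneuron precursor factors Sp8 (10.85, next 5.89) and Dlx2 (11.02, next 8.96) and for Tet1 (5.16, next 4.70). In p53 Nf1KO glioma 2 the glutamate receptor gene Grin1 was high at 6.83.

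In the p53 gliomas, number 9 was high for Fgf4 (12.10, next 7.26) and for Hoxd8 (3.89, next 3.02). Number 8 was high for Olfml3 (11.57) and low for Gstk1 (6.45). Number 2 was high for Hoxd10 (3.23) and low for Plk2 (7.34), and number 6 was high for Polr3gl (7.62). None of these p53 values crosses into the p53 Nf1KO range for Hoxd8, Gstk1 or Polr3gl.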

How the results depend on the processing

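The number of called probe sets, 479, was 453 with arrays centred on the median (53% higher in p53 Nf1KO gliomas, against 45.9%), 509 with a filter on low values, 453 with 1 probe set per gene and 452 with trend and robust moderation. It was 26 with all 9 p53 gliomas, 18 with the 12 arrays alone, 115 with the Z2 arrays, 155 with the 3 glioma models, 142 with a weight per group, 186 after quantile normalization and 52 at an adjusted p under 0.01. A fit to 13 arrays with all 9 p53 gliomas, added after the data were seen, called 6. Leaving out 1 array gave 80 (without p53 Nf1KO glioma 2) to 1295 (without p53 glioma 5). The cause of each change was not tested.

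The difference for Nf1 was -0.81 in the 12 arrays alone (adjusted p = 0.149), -0.78 in the 13 arrays (0.375) and -0.87 to -0.71 with 1 array left out, always called in the last. Trp53 ran from -0.65 (adjusted p = 0.0403 without p53 Nf1KO glioma 4) to -0.50, and was -0.63 (0.029) without p53 glioma 5. Rictor ran from -0.17 to 0.005 (0.005 without p53 Nf1KO glioma 1). Of the 68 named genes called, 16 were called with all 9 p53 gliomas, 11 with the 12 arrays alone and 29 without p53 Nf1KO glioma 2, and 0 changed direction in any fit.

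Replicate numbers 2 to 4 occur in both groups. The deviations of same-numbered arrays correlated at -0.19, -0.111 and -0.374. None was positive, but 3 correlations over all probe sets cannot exclude a pairing. With the replicate number as a block, limma called 0 (1172 at an unadjusted p under 0.05), Nf1 was -0.61 (adjusted p = 0.833) and Rictor 0.053. The other numbers each occur in a single group, so this fit compares the groups through numbers 2 to 4 alone. It is not a result over all 12 arrays. With 4 arrays against 8, small differences cannot be resolved.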

Other observations

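Activity-dependent and imprinted genes varied within the p53 Nf1KO gliomas. The immediate early gene Fosb read 11.57, 8.57, 4.81 and 7.79 in p53 Nf1KO gliomas 1 to 4, beside 4.87 to 8.0 in p53 gliomas, and Arc, which acts at synapses, read 11.46, 8.35, 5.56 and 7.52 beside 3.71 to 8.21. Number 1 was highest in each and number 3 lowest, and neither gene was called (limma adjusted p = 0.0929 and 0.104). Of 20 immediate early genes 0 were called, with a median of 0.03. Of 21 imprinted genes 1 was called, 7 were lower by sign and the median was 0.32, beside 2.61% called and 54.2% lower over all probe sets. The paternally expressed genes Peg3, Usp29 and Snrpn differed by 1.35, 1.54 and 1.11 without being called (0.0773, 0.0634 and 0.0721), with p53 Nf1KO glioma 3 highest for Peg3 at 9.60 and for Usp29 at 8.85. Plagl1, an imprinted zinc finger factor, was called at 1.28 ± 0.33 (0.0387), with number 1 highest at 7.63. This call was lost with all 9 p53 gliomas and in 7 of the 12 fits that left out 1 array.

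Cyclin D2 (Ccnd2) ran opposite to cyclin D1 by sign. It read 10.25, 9.14, 12.30 and 10.38 in p53 Nf1KO gliomas and 6.96 to 11.54 (median 8.85) in p53 gliomas, a difference of 1.50 ± 0.58 that was not called (limma adjusted p = 0.134). Of 21 genes of myelinating oligodendrocytes 0 were called, with a median of 0.09. Of 15 genes of their progenitors 0 were called, with a median of -0.46 and 13 lower by sign, beside 54.2% of all probe sets. In the first list Mobp of myelin read 10.93, 10.92, 11.40 and 9.86 beside 6.33 to 10.70, a difference of 2.01 ± 0.57 (0.0528).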
